A study of Mus musculus with 14 samples.

Results

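The contrast described here set the change of gene expression in miR-15/16-deficient regulatory T cells (Tregs) beside the change between WT Tregs with low and with high surface CD25, and asked for each gene whether the deletion moved it further, less far or the other way. For each gene it was the difference of differences (cKO minus WT) minus (CD25lo minus CD25hi) on a log2(normalized count + 1) scale, where a normalized count is the number of reads of a library divided by its size factor. The difference cKO minus WT is called the cKO arm below, and CD25lo minus CD25hi the CD25lo arm. A positive contrast means that the gene stood higher in cKO Tregs, relative to WT Tregs, than in CD25lo Tregs relative to CD25hi Tregs. The genes described are the 9971 autosomal genes with a mean of at least 100 normalized counts over the 14 libraries, of 48363 genes with values. At that limit, Havcr2 was just outside with a mean of 99.9 and Wdfy3 just inside with 100.2.

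RNA-seq was run on CD4+FOXP3-YFP+ Tregs from pooled spleen and inguinal, axillary and brachial lymph nodes of untreated mice. cKO Tregs (5 libraries) came from mice with floxed miR-15/16 alleles and Foxp3-Cre (miR-15/16 fl/fl), in which Cre, expressed with YFP from the endogenous Foxp3 locus, deletes both clusters (miR-15a with miR-16-1, and miR-15b with miR-16-2) in cells that express Foxp3. WT Tregs (4 libraries) came from Foxp3-Cre mice whose miR-15/16 alleles were wt/wt, so the controls carry the Cre allele too. CD25hi (3 libraries) and CD25lo (2 libraries) Tregs were sorted as the high and low CD25 bins of WT Tregs. The age of the mice of each library is not given in the sources used here. The labels number the libraries within each group and do not say which came from the same mouse. In sorted populations, fewer cells of a kind and less RNA per cell cannot be told apart.

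Tregs suppress immune responses and depend on interleukin-2 (IL-2) made by other cells. CD25, encoded by Il2ra, is the alpha chain of the high-affinity IL-2 receptor, and IL-2 signals through STAT5 to keep up Foxp3 and Il2ra itself. The miR-15/16 family are microRNAs, short RNAs that pair with the 3′ UTR of mRNAs through their seed (bases 2 to 8) and lower the level or translation of the target, and they are known for restraining the G1 phase of the cell cycle. The mature sequences lost from the cKO Tregs (RefSeq, GRCm38.p6) share the seed AGCAGCA, here in capitals. They lie at chr14:61632075-61632096 (miR-15a-5p, minus strand), chr3:69009775-69009796 (miR-15b-5p, plus strand), and, for the identical copies of miR-16-5p, chr14:61631936-61631957 (minus strand) and chr3:69009918-69009939 (plus strand).
miR-15a-5p: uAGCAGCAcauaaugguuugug
miR-15b-5p: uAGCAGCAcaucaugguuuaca
miR-16-5p: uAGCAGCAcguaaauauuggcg

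Every library listed the 4 miRNA genes at 0, and the deletion could not be read from these data. The host transcript Dleu2 was at 2121 to 2713 normalized counts in cKO Tregs and 86.3 to 1100 in WT Tregs, and Smc4, which hosts the other cluster, at 38804 to 43250 and 39583 to 41486. The miRNA clusters lie within these host genes, and the level of the host RNA does not check the deletion. Dleu2 rose by 2.32 in the cKO arm (SE 0.51, limma adjusted p = 0.0129), with a contrast of 2.51 (SE 0.85, limma adjusted p = 0.1780). WT replicate 2 was at 86.3 and the other WT libraries at 695 to 1100. Without WT replicate 2 the contrast of Dleu2 was 1.67 (limma adjusted p = 0.0368), and it was called in 1 of 14 such fits. The cKO arm of Smc4 was 0.02 (SE 0.05). Libraries held 30055573 to 35226685 reads in genes. Foxp3 (14546 to 24370), Cd4 (35747 to 45018) and Cd3e (30011 to 40063) were present in every library, while Cd8a reached 60.4 normalized counts at most and Cd8b1 was at 255.2 to 661 in every library. The libraries also differed in ways the groups do not name. Xist ranged from 34038 to 43337 among the 5 cKO libraries and reached 39239 in WT replicate 3, while the remaining 3 WT and 5 CD25-sorted libraries held 64.6 at most, so sex and genotype overlap in the cKO arm. Immediate early and stress genes (25 listed) had sums of 823023 to 884292 for the first 3 WT replicates and 313342 for WT replicate 4, 404396 to 788182 in cKO Tregs, 239482 to 292938 in CD25hi Tregs and 282358 to 332411 in CD25lo Tregs. Myeloid markers (12 listed) summed to 14212 to 18649 in WT replicates 1 to 3 and to 7620 to 12221 in the other 11 libraries. Of these, Csf1r was at 3159, 1473 and 2431 in WT replicates 1 to 3 and 2126 in cKO replicate 4, and Cd68 reached 762.2, Fcer1g 555 and Tyrobp 347.8, while Itgam was at no more than 43.5 in any library. B cell markers (14 listed) were also highest in WT replicates 1 to 3, with sums of 7100, 4555 and 4972, against at most 3613 in the other 11 libraries. The part of sex, stress genes, myeloid RNA and B cell RNA in the results was not tested beyond the fits with sex or stress level as a term given below.

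The contrast passed the test (limma, adjusted p under 0.05 over the 16241 genes fitted) for 162 of the 9971 genes, or 1.62%, against 168 (1.03%) of all 16241. Of the 162, 105 (1.05% of the 9971) were higher and 57 (0.572%) lower in the contrast, against 0.671% and 0.363% of all genes fitted, and the median contrast over all 9971 genes was -0.00341 on the log2 scale. The absolute contrast of the called genes had a median of 0.821. The standard error of the contrast had a median of 0.223 over all genes, against 0.132 for the cKO arm alone and 0.18 for the CD25lo arm alone. Called genes had a median level of 3051 normalized counts, and all 9971 genes one of 1252. A gene that was not called may therefore still have moved by unequal amounts in the 2 arms.

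In the cKO arm 510 genes (5.11%) were called, 292 higher (2.93%) and 218 lower (2.19%), against 3.52%, 2.04% and 1.48% of all genes fitted, and 63 of these 510 (12.4%) were also called in the contrast. In the CD25lo arm 241 genes (2.42%) were called, 90 higher (0.903%) and 151 lower (1.51%), against 1.62%, 0.61% and 1.01% of all genes fitted, and 86 of these 241 (35.7%) were called in the contrast. The arms shared 59 called genes, 11.6% of those of the cKO arm and 24.5% of those of the CD25lo arm, and 51 of the 59 changed in the same direction. Sorted by the arm that carried the call, 53 genes of the contrast were called in the cKO arm alone (42 higher and 11 lower in the contrast), 76 in the CD25lo arm alone (48 and 28), 8 in both arms in opposite directions (5 and 3), 2 in both in the same direction (both higher) and 23 in neither (8 and 15).

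**Figure D1:**
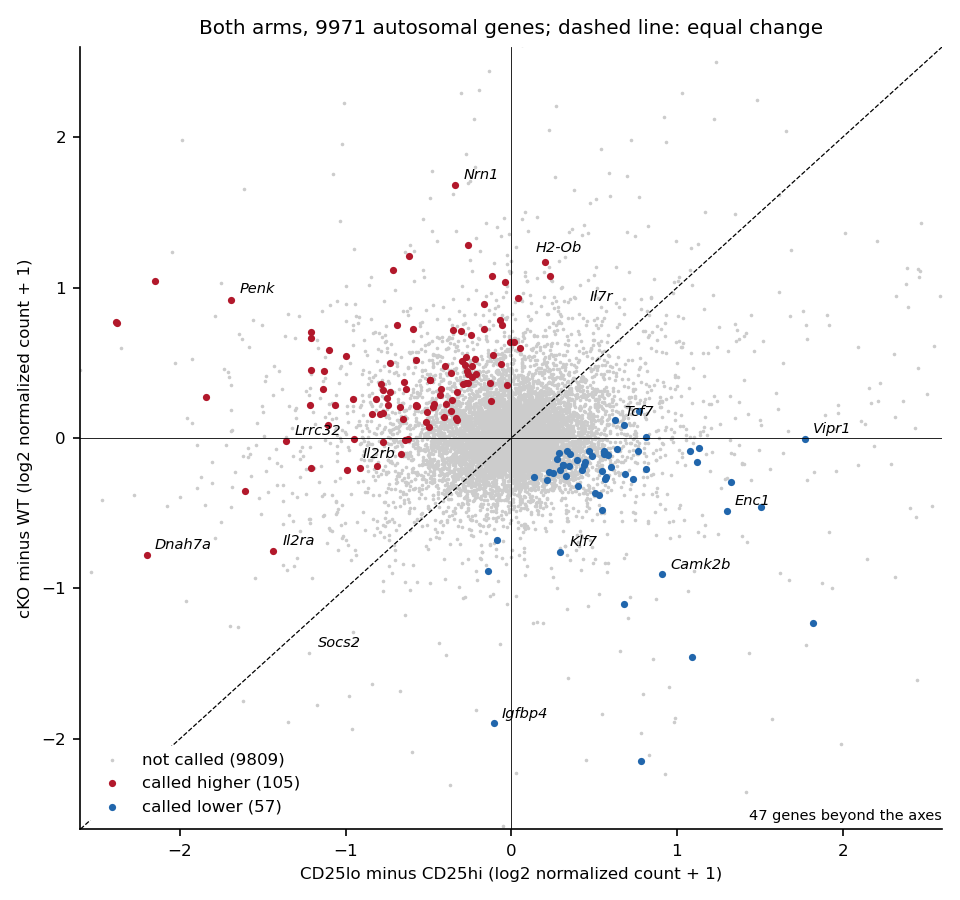
Change in the CD25lo arm (x axis) against change in the cKO arm (y axis), both as log2 differences of normalized counts + 1, for the 9971 autosomal genes (47 lie beyond the axes). Genes on the dashed line changed equally in both arms; the 105 genes called higher in the contrast (red) lie above it and the 57 called lower (blue) below it.

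These counts depended on single libraries and on the terms of the fit. Without CD25lo replicate 2 there were 44 higher and 13 lower genes, and without CD25lo replicate 1 there were 81 and 16. Leaving out cKO replicate 1, 3, 4 or 5 gave 52 and 21, 53 and 17, 58 and 25, or 50 and 19. Leaving out WT replicate 1 gave 87 and 37, WT replicate 3 gave 56 and 21, CD25hi replicate 1 gave 75 and 28, and CD25hi replicate 3 gave 52 and 24. With library sex as a term, which sets cKO Tregs against WT replicate 3 alone, 18 were called higher and 3 lower, and 20 of these 21 were among the 162. With the stress gene level as a term there were 230 and 171, which included all 162. With WT replicate 4 as the only WT library there were 209 and 99, of which 99 genes were among the 162.

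Of the IL-2 receptor chains, Il2ra fell in both arms and Il2rb in the CD25lo arm alone. The CD25hi and CD25lo bins were sorted on CD25, the protein of Il2ra, so the size of its CD25lo arm depends on the sort. Il2ra (chr2:11642807-11693193) gave 15939, 16953, 14167, 17141 and 13359 normalized counts in cKO Tregs (replicates 1 to 5, the order used for all groups) and 25645, 24206, 25146 and 29151 in WT Tregs. CD25hi Tregs held 39725, 41188 and 39583 and CD25lo Tregs 15027 and 14682. The cKO and CD25lo libraries overlapped, and the WT libraries lay between them and the CD25hi libraries, so the CD25lo arm started from a higher level and spanned a wider drop. On the log2 scale Il2ra fell by 0.75 in the cKO arm (SE 0.07, limma adjusted p = 1.5e-05) and by 1.43 in the CD25lo arm (SE 0.10, limma adjusted p = 4.8e-07), a contrast of 0.68 (SE 0.13, limma adjusted p = 0.0133). Its call ended without CD25lo replicate 2 (limma adjusted p = 0.0684), with the sex term (limma adjusted p = 0.109) and with WT replicate 4 as the only WT library (limma adjusted p = 0.1014).

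Il2rb (chr15:78480553-78495066) encodes the beta chain, which IL-2 and IL-15 share. It stood at 43481, 41681, 44610, 48884 and 43805 in cKO Tregs and at 43632, 43964, 45621 and 45529 in WT Tregs, ranges that overlapped. The CD25-sorted libraries did not overlap, with 55683, 53120 and 54301 in CD25hi and 28061 and 28143 in CD25lo Tregs. The contrast of Il2rb was 0.94 (SE 0.09, limma adjusted p = 7.8e-05), the smallest adjusted p of all 9971 genes, with a cKO arm of -0.01 (SE 0.05) and a CD25lo arm of -0.95 (SE 0.07). It passed the test in every fit run, each of 14 libraries left out included, with limma adjusted p up to 0.0108 (with the sex term).

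Of 13 measured genes of the IL-2 and STAT5 response, 4 were called higher in the contrast (Il2rb, Il2ra, Cish and Ccnd2) and 0 lower (1.05% and 0.572% over all 9971 genes), with a list median of 0.23. With the sex term 1 was called higher, Il2rb, so that Il2ra, Cish and Ccnd2 lost their call. The count was 2 without CD25lo replicate 2. In the CD25lo arm 0 rose and 7 fell, and in the cKO arm 0 rose and 4 fell (Il2ra, Socs2, Lta and Socs1). Cish, a STAT5-induced inhibitor of cytokine signaling, was at 7666 ± 802 (SD, n = 5) across cKO libraries, 8900 ± 1018 (SD, n = 4) across WT libraries, 10550 ± 1085 (SD, n = 3) across CD25hi libraries and 5293 ± 247 (SD, n = 2) across CD25lo libraries, with a contrast of 0.78 (SE 0.15, limma adjusted p = 0.0179). Socs2, another STAT5 target, instead changed alike. It was at 678, 605, 547, 649 and 576 in cKO and 1549, 1381, 1686 and 2016 in WT Tregs, and at 2830, 2371 and 2147 in CD25hi and 1092 and 997 in CD25lo Tregs. Socs2 fell by 1.43 in the cKO arm (SE 0.12, limma adjusted p = 2.0e-06) and by 1.22 in the CD25lo arm (SE 0.17, limma adjusted p = 8.8e-04), and the contrast of -0.21 had a 95% interval from -0.64 to 0.22. Myc, a growth regulator downstream of IL-2, fell by 0.54 and 0.57 in the arms (limma adjusted p = 7.6e-04 and 0.0116), with a contrast of 0.02 and an interval from -0.26 to 0.31.

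Because Il2ra fell further in the CD25lo arm, the CD25lo arm was also multiplied by 0.5231, the ratio of the Il2ra changes. By construction this sets the contrast of Il2ra to 0.00, so Il2ra cannot be called there. Under this scaling, 156 genes were higher and 96 lower, and 118 of the 252 were among the 162 of the unscaled contrast. Il2rb kept a contrast of 0.49 (limma adjusted p = 0.0011), while in the list 2 genes were then called higher (Il2rb and Ccnd2) and 1 lower, Socs2 at -0.79 (limma adjusted p = 0.0124).

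Core Treg genes stood on the higher side of the contrast. Of 19 measured, 6 were called higher (Lrrc32, Ikzf2, Il2ra, Tnfrsf1b, Entpd1 and Nrp1) and 0 lower (1.05% and 0.572% over all 9971 genes), and the list median was 0.62, beside -0.00341 for all genes. All 19 had a positive contrast, called or not. In the CD25lo arm 0 of the 19 rose and 12 fell, whereas in the cKO arm 4 rose (Tigit, Icos, Nrp1 and Ikzf2) and 3 fell (Il2ra, Gpr83 and Capg). With the Il2ra scaling 4 were called higher and 0 lower, and with the sex term 1 and 0. The count was 2 without CD25lo replicate 2, and 3 without cKO replicate 1, 3, 4 or 5, WT replicate 3, CD25hi replicate 1 or CD25lo replicate 1.

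Lrrc32 (chr7:98489283-98502181) encodes GARP, which holds latent TGF-beta at the Treg surface. Its level was 16674, 14923, 14918, 15522 and 14945 in cKO and 17249, 16112, 16685 and 12770 in WT Tregs, and 19648, 15990 and 16057 in CD25hi and 7543 and 5923 in CD25lo Tregs. Only the CD25lo libraries stood apart, below the other 12. The contrast of Lrrc32 was 1.34 (SE 0.15, limma adjusted p = 5.4e-04), with a cKO arm of -0.02 (SE 0.09) and a CD25lo arm of -1.36 (SE 0.12). Tnfrsf1b, a receptor for TNF, had 11067 ± 842 (SD, n = 3) across CD25hi libraries and 7779 ± 899 (SD, n = 2) across CD25lo libraries, and a contrast of 0.68 (SE 0.15, limma adjusted p = 0.0376). Entpd1 encodes CD39, an ectoenzyme that breaks down extracellular ATP, and had a contrast of 0.88 (SE 0.20, limma adjusted p = 0.0394). Foxp3, which is X-linked and so not among the 9971 genes, was at 19652, 18858, 18375, 18137 and 17804 in cKO, 18894, 19891, 18053 and 21324 in WT, 24370, 21788 and 22394 in CD25hi and 16298 and 14546 in CD25lo Tregs. It fell by 0.57 in the CD25lo arm (SE 0.08, limma adjusted p = 0.0016), its cKO arm was -0.07 (SE 0.06, limma adjusted p = 0.6275), and the contrast was 0.50 (SE 0.10, limma adjusted p = 0.0304). The calls of Tnfrsf1b and Foxp3 ended with the sex term (limma adjusted p = 0.2189 and 0.0798) and with the Il2ra scaling (limma adjusted p = 0.0505 and 0.1528), and held in 4 and 7 of the 14 fits that left out 1 library.

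**Figure D2:**
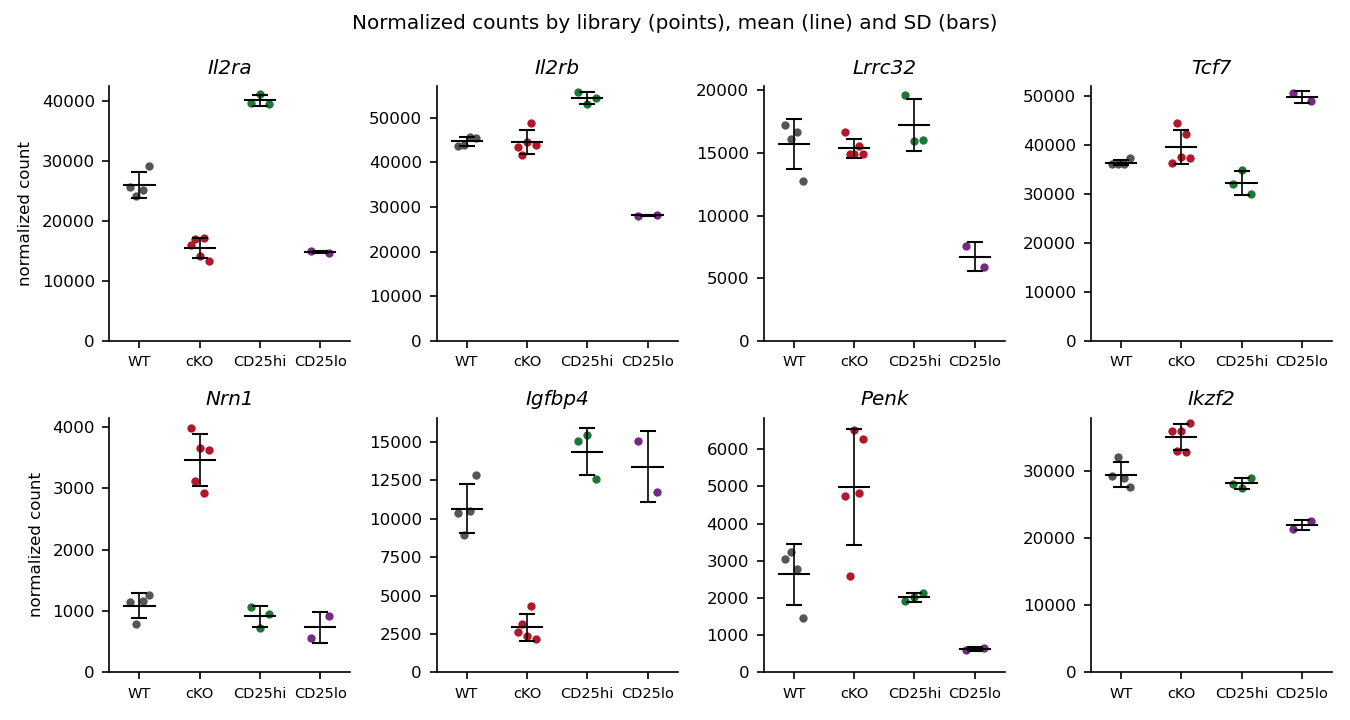
Normalized counts (y axis, from 0) of 8 genes in each library (points) by group (x axis), with the group mean (line) and SD (bars). For Il2ra the cKO libraries sit with the CD25lo libraries, for Il2rb and Lrrc32 they sit with WT, and for Nrn1 and Igfbp4 they stand apart from the other 9 libraries.

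**Figure D3:**
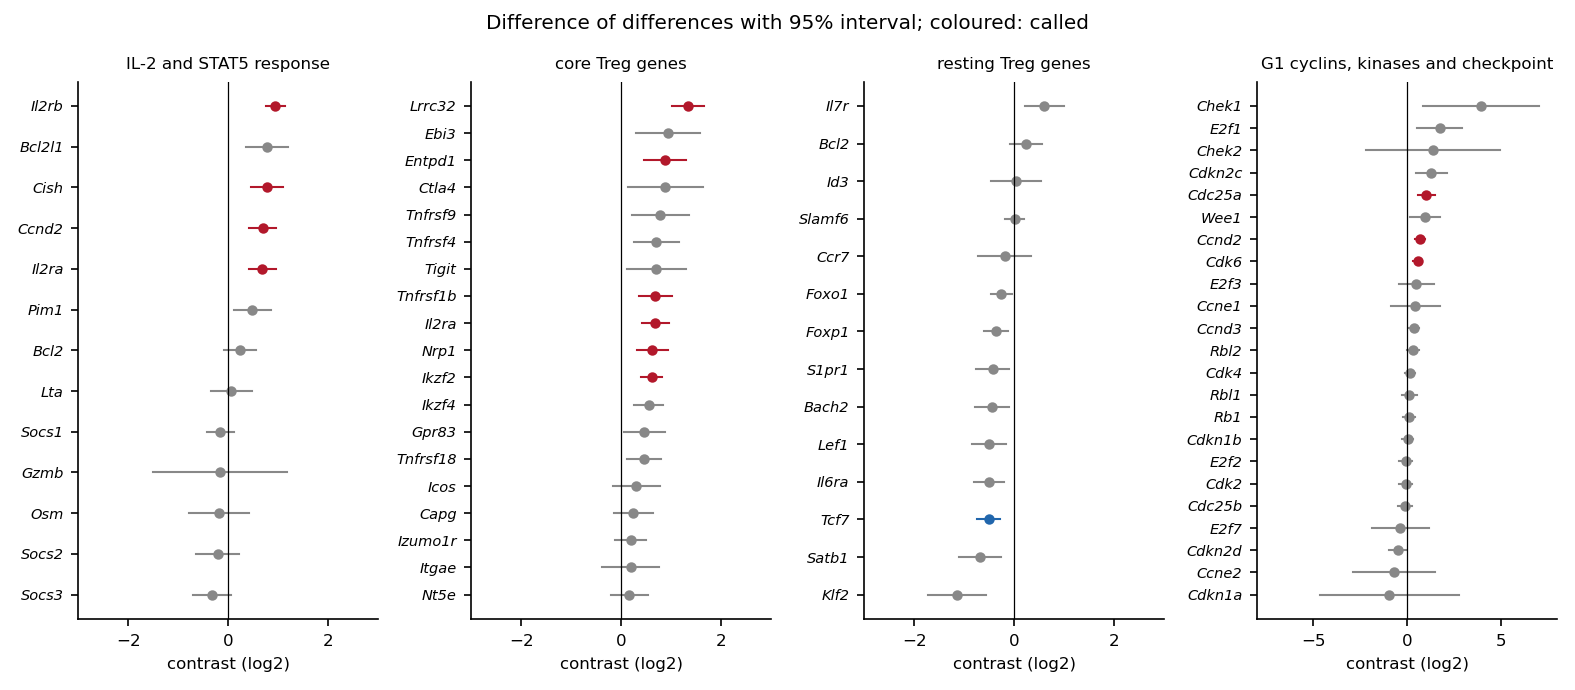
The contrast on the log2 scale (x axis) with its 95% interval for measured members of 4 gene lists; coloured points passed the test and grey points did not. All 19 core Treg genes lie above 0, while most resting Treg genes shown, Tcf7 among them, lie below it.

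Genes called in the cKO arm and not in the CD25lo arm made up 53 of the 162, 42 of them higher. A CD25lo arm that missed the test does not show an equal level in CD25hi and CD25lo Tregs. Nrn1 (chr13:36725361-36735131), which encodes the GPI-anchored protein neuritin, was at 3973, 3112, 3646, 2920 and 3623 in cKO and 1146, 784, 1157 and 1255 in WT Tregs. In CD25hi Tregs it was at 1069, 720.1 and 945 and in CD25lo Tregs at 554 and 911. Every cKO library was above all other libraries. Nrn1 rose by 1.68 in the cKO arm (SE 0.16, limma adjusted p = 1.0e-05), and its contrast of 2.02 (SE 0.27, limma adjusted p = 0.0029) passed the test without each library in turn and with the sex term (1.91, limma adjusted p = 0.0433).

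Phlpp1 (chr1:106171752-106394250), a phosphatase that acts on AKT, was at 4469, 4494, 4541, 4367 and 4498 in cKO and 2305, 2401, 1955 and 1860 in WT Tregs. CD25hi libraries held 1814, 1697 and 1834 and CD25lo libraries 2079 and 2101. The cKO libraries lay apart from all others by more than their own range, and the contrast was 0.85 (SE 0.13, limma adjusted p = 0.0055). H2-Ob, the beta chain of the MHC class II accessory molecule H2-O, was at 4041 ± 321 (SD, n = 5) across cKO libraries and 1794 ± 96.5 (SD, n = 4) across WT libraries, with a contrast of 0.97 (SE 0.15, limma adjusted p = 0.0044). Cbx5, which encodes the heterochromatin protein HP1 alpha, was at 4410 ± 292 (SD, n = 5) and 3266 ± 209.8 (SD, n = 4), with a contrast of 0.80 (SE 0.12, limma adjusted p = 0.0041). Near-identical processed copies of Cbx5 exist in the genome, and how reads shared with them were counted is not given in the sources used here. In the CD25-sorted groups Cbx5 was at 4368 ± 380.5 (SD, n = 3) and 3384 ± 5.3 (SD, n = 2), so that CD25hi Tregs were at the level of cKO Tregs and both CD25lo libraries below every CD25hi library. The CD25lo arms of Cbx5, Tbc1d4 and Colq were -0.36, -0.40 and -0.69 (limma adjusted p = 0.0745, 0.0745 and 0.0574), without overlap of the sorted groups, beside cKO arms of 0.43, 0.48 and 0.75. Tbc1d4, a Rab GTPase-activating protein in glucose transporter traffic, had a contrast of 0.88 (SE 0.13, limma adjusted p = 0.0041), and Colq, the collagen tail of acetylcholinesterase, one of 1.44 (SE 0.22, limma adjusted p = 0.0041). Pfkl encodes the liver form of phosphofructokinase. It was the 1 gene called, higher, among 16 measured glycolysis genes, beside 1.05% called higher over all 9971 genes. Pfkl was at 4151 ± 279.9 (SD, n = 5) across cKO libraries and 2417 ± 270.1 (SD, n = 4) across WT libraries, with a contrast of 0.85 (SE 0.15, limma adjusted p = 0.0095). Phlpp1, H2-Ob, Cbx5, Tbc1d4, Colq and Pfkl kept their call with the sex term, and Pfkl lost it without CD25lo replicate 1 (limma adjusted p = 0.0513).

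Fgl2, a secreted mediator of Treg suppression, was the 1 called gene (higher) of 27 measured effector Treg genes (1.05% higher over all 9971 genes), whose list median was 0.26. It was at 2356, 1350, 1900, 2104 and 2611 in cKO and 1111, 1052, 798 and 883 in WT Tregs, without overlap, and at 718 ± 31.7 (SD, n = 3) across CD25hi libraries and 663 ± 36.7 (SD, n = 2) across CD25lo libraries. Its contrast of 1.19 (SE 0.27, limma adjusted p = 0.0375) lost the call with the sex term (limma adjusted p = 0.1131) and without any of 10 libraries, at limma adjusted p up to 0.1028. In the cKO arm 6 effector Treg genes rose and 0 fell, and in the CD25lo arm 0 rose and 1 fell.

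The contrast was lower for 11 genes of the cKO arm alone. Igfbp4 (chr11:99041244-99054392), which encodes a secreted protein that binds insulin-like growth factors, was at 2650, 3130, 2342, 4309 and 2200 in cKO and 10372, 8928, 10522 and 12817 in WT Tregs. It was at 15024, 15443 and 12592 in CD25hi and 15029 and 11752 in CD25lo Tregs. Every cKO library was below all other libraries. Igfbp4 fell by 1.90 in the cKO arm (SE 0.15, limma adjusted p = 1.0e-06) and had a contrast of -1.79 (SE 0.26, limma adjusted p = 0.0041), called without each library in turn and with the sex term (-1.78, limma adjusted p = 0.047). Klf7, a Krüppel-like transcription factor, was at 1748 ± 148 (SD, n = 5) across cKO libraries and 2964 ± 348 (SD, n = 4) across WT libraries, with a contrast of -1.05 (SE 0.18, limma adjusted p = 0.0095). Adpgk, an ADP-dependent glucokinase, was at 2301 ± 199 (SD, n = 5) and 4247 ± 376 (SD, n = 4), with a contrast of -0.74 (SE 0.15, limma adjusted p = 0.0280). The kinase gene Map4k4 had a contrast of -0.48 (SE 0.09, limma adjusted p = 0.0185), and Adgre5, which encodes the adhesion receptor CD97, one of -0.50 (SE 0.10, limma adjusted p = 0.0304). Myo10, an unconventional myosin, had a contrast of -2.54 (SE 0.53, limma adjusted p = 0.0304). The cKO arms of Map4k4, Adgre5 and Myo10 were -0.23, -0.28 and -1.45, beside CD25lo arms of 0.25, 0.22 and 1.09. These CD25lo arms missed the test (limma adjusted p = 0.1055, 0.2407 and 0.2547), but the sorted groups did not overlap. Klf7 and Adpgk had cKO arms of -0.76 and -0.88 and CD25lo arms of 0.30 and -0.14. Klf7, Map4k4, Adpgk, Adgre5 and Myo10 were not called with the sex term (limma adjusted p from 0.0518 to 0.2563), and each lost its call without CD25lo replicate 1. Adpgk, Adgre5 and Myo10 were called in 8, 7 and 6 of the 14 fits that left out 1 library.

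Genes that moved opposite ways in the arms numbered 8, of which 5 were higher in the contrast (Penk, Vars, Igf2r, Ikzf2 and Ndufa4) and 3 lower (Camk2b, Add3 and 4932438A13Rik, the last named after its values were seen). This count ranged from 1 (without CD25lo replicate 2) to 10 over the libraries left out. It was 3 without cKO replicate 1 or 3, WT replicate 3, CD25hi replicate 3 or CD25lo replicate 1, 4 without cKO replicate 4 or 5, 5 without WT replicate 1 and 0 with the sex term.

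Penk (chr4:4133531-4138819) encodes proenkephalin, the precursor of opioid peptides. It was at 4751, 2590, 6520, 4813 and 6263 in cKO and 3058, 3242, 2778 and 1453 in WT Tregs, where cKO replicate 2 lay within the WT range. In CD25hi Tregs it was at 1906, 2022 and 2142 and in CD25lo Tregs at 592 and 662, without overlap. Penk rose by 0.92 in the cKO arm (SE 0.23, limma adjusted p = 0.0328) and fell by 1.69 in the CD25lo arm (SE 0.32, limma adjusted p = 0.0098), a contrast of 2.61 (SE 0.39, limma adjusted p = 0.0041), and of 2.46 with the sex term (limma adjusted p = 0.074).

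Igf2r (chr17:12682406-12769664), the receptor that clears IGF2 and carries enzymes to lysosomes, was at 16024, 19180, 16684, 19076 and 17692 in cKO and 14172, 14002, 13269 and 15007 in WT Tregs. It was at 15789, 17998 and 16589 in CD25hi and 13312 and 11772 in CD25lo Tregs, and neither pair of groups overlapped. The contrast of Igf2r was 0.75 (SE 0.11, limma adjusted p = 0.0041). Ikzf2 (chr1:69531214-69687245) encodes Helios, a transcription factor of thymus-derived Tregs. Its levels were 35979, 32968, 35949, 32845 and 37116 in cKO, 29174, 32005, 28882 and 27600 in WT, 28032, 27390 and 28926 in CD25hi and 21398 and 22455 in CD25lo Tregs. All cKO libraries were above all others and both CD25lo libraries below, with a contrast of 0.61 (SE 0.10, limma adjusted p = 0.0062), and of 0.63 with the sex term (limma adjusted p = 0.0685). Vars, a valyl-tRNA synthetase, had a contrast of 0.62 (SE 0.09, limma adjusted p = 0.0041). The contrast of Ndufa4, a subunit of the respiratory chain with processed copies in the genome, was 1.23 (SE 0.21, limma adjusted p = 0.0081) and lost its call without CD25lo replicate 2 (limma adjusted p = 0.0664) and with the sex term (limma adjusted p = 0.0817).

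Camk2b (chr11:5969644-6066362), a calcium/calmodulin-dependent kinase, moved the opposite way. It was at 611, 495, 598, 624 and 629.8 in cKO and 961, 1102, 1013 and 1394 in WT Tregs. CD25hi Tregs held 860.3, 602 and 807 and CD25lo Tregs 1378 and 1434. It fell by 0.91 in the cKO arm and rose by 0.91 in the CD25lo arm, with a contrast of -1.82 (SE 0.24, limma adjusted p = 0.0025) that kept its call with the sex term (limma adjusted p = 0.043). Add3, an adducin of the membrane skeleton, had a contrast of -0.59 (SE 0.10, limma adjusted p = 0.0095), lost with the sex term (limma adjusted p = 0.1677).

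The CD25lo arm alone carried 28 genes that were lower in the contrast. Vipr1, a receptor for vasoactive intestinal peptide, was at 734, 767 and 1038 in CD25hi and 2585 and 3156 in CD25lo Tregs, and at 1222 ± 252 (SD, n = 5) across cKO libraries and 1237 ± 297 (SD, n = 4) across WT libraries. The CD25lo libraries stood above all other libraries, and the contrast was -1.78 (SE 0.29, limma adjusted p = 0.0062). Themis, an adaptor of T cell receptor signaling, was at 2261 ± 49.9 (SD, n = 3) and 3856 ± 283 (SD, n = 2) in the sorted groups, with a contrast of -0.86 (SE 0.15, limma adjusted p = 0.0095). Enc1, an actin-associated kelch protein, had a contrast of -1.79 (SE 0.31, limma adjusted p = 0.0102) and Phf20l1, a reader of methylated lysines, one of -0.61 (SE 0.10, limma adjusted p = 0.0062). On the higher side, Ergic1, a protein of the ER-Golgi intermediate compartment, had a contrast of 0.94 (SE 0.14, limma adjusted p = 0.0041). Those of Ptprs, a receptor tyrosine phosphatase, and Lrig1, a negative regulator of growth factor receptors, were 1.09 (SE 0.16, limma adjusted p = 0.0041) and 0.78 (SE 0.12, limma adjusted p = 0.0041). A cKO arm that missed the test does not show an equal level in cKO and WT Tregs. For Ptprs, Lrig1 and Enc1 the cKO arms were 0.32, 0.21 and -0.49, beside CD25lo arms of -0.78, -0.57 and 1.30. For Vipr1, Themis, Phf20l1 and Ergic1 the cKO arms were -0.01, -0.09, -0.18 and 0.16. Among these 7, Ptprs and Lrig1 were called with the sex term (limma adjusted p = 0.0268 for both), and the other 5 were not (limma adjusted p from 0.0521 to 0.1158). Vipr1, Themis and Enc1 also lost their call without CD25lo replicate 2 (limma adjusted p from 0.0557 to 0.0664).

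Resting Treg genes leaned the other way from core Treg genes. Of 15 measured, 0 were called higher and 1 lower, Tcf7 (1.05% and 0.572% over all 9971 genes), with a list median of -0.37, and 11 of the 15 had a contrast below 0. In the cKO arm 2 of the 15 rose and 4 fell, and in the CD25lo arm 1 rose and 0 fell. Tcf7 (chr11:52252371-52283014) encodes TCF1, a transcription factor of naive and memory T cells. It was at 36350, 44512, 37620, 42246 and 37421 in cKO and 36223, 36074, 36120 and 37316 in WT Tregs. In CD25hi Tregs it was at 32010, 34928 and 29964 and in CD25lo Tregs at 50655 and 48916, above every other library. Tcf7 rose by 0.63 in the CD25lo arm (SE 0.09, limma adjusted p = 0.0014), its cKO arm was 0.12 (SE 0.07, limma adjusted p = 0.4056), and the contrast was -0.51 (SE 0.11, limma adjusted p = 0.0350). The call was lost with the sex term (limma adjusted p = 0.2695), with the Il2ra scaling (-0.21, limma adjusted p = 0.2168) and without any of 9 libraries (limma adjusted p up to 0.1014). Its partner Lef1 had a contrast of -0.50 (95% interval -0.84 to -0.17, limma adjusted p = 0.1449). Il7r, the IL-7 receptor chain that rose by 1.02 in the cKO arm (SE 0.11, limma adjusted p = 3.3e-05), had a CD25lo arm of 0.42 (SE 0.15, limma adjusted p = 0.2087) and a contrast of 0.60 (SE 0.19, limma adjusted p = 0.1332). Its levels were 12768, 11599, 12228, 12162 and 9447 in cKO, 5024, 5031, 7281 and 5779 in WT, 5602, 7094 and 5355 in CD25hi and 7797 and 8134 in CD25lo Tregs. With the Il2ra scaling the contrast of Il7r was 0.80 (limma adjusted p = 0.0058), and the list then held 1 gene called higher and 2 lower.

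Cell cycle genes were listed by phase. Of 23 measured G1 cyclins, kinases and checkpoint genes 3 were higher (Ccnd2, Cdc25a and Cdk6) and 0 lower (1.05% and 0.572% over all 9971 genes), with a list median of 0.34. The same 3 genes were those called among 14 measured known miR-15/16 targets (median 0.42). In the cKO arm 3 of the 14 rose and 2 fell (median 0.24), and in the CD25lo arm 0 rose and 3 fell (median -0.24). Ccnd2 (chr6:127125162-127152193), cyclin D2, was at 29276, 29003, 26030, 26033 and 25230 in cKO and 21538, 20905, 23282 and 27359 in WT Tregs, which overlapped. It was at 28948, 32925 and 29991 in CD25hi and 22564 and 21768 in CD25lo Tregs, with a contrast of 0.69 (SE 0.13, limma adjusted p = 0.0133). Cdk6, the kinase partner of D cyclins, was at 4273 ± 219 (SD, n = 5) across cKO libraries, 4601 ± 265 (SD, n = 4) across WT libraries, 5643 ± 533 (SD, n = 3) across CD25hi libraries and 3555 ± 355 (SD, n = 2) across CD25lo libraries, with a contrast of 0.56 (SE 0.12, limma adjusted p = 0.0375). Cdc25a (chr9:109875579-109893895), the phosphatase that activates cyclin-dependent kinases, was at 1283, 1208, 1309, 1325 and 1482 in cKO and 768, 665, 785 and 1050 in WT Tregs, without overlap. It was at 1119, 1042 and 913 in CD25hi and 777 and 882 in CD25lo Tregs, with a contrast of 1.01 (SE 0.22, limma adjusted p = 0.0330). Of these, Ccnd2 and Cdk6 were called in the CD25lo arm alone and Cdc25a in the cKO arm alone. None of the 3 was called with the sex term (limma adjusted p from 0.1608 to 0.3324) or without CD25lo replicate 2 (limma adjusted p from 0.0684 to 0.1824). Of the 14 fits that left out 1 library, Cdc25a and Cdk6 were each called in 5 and Ccnd2 in 13, and Cdk6 was not called with the Il2ra scaling (0.24, limma adjusted p = 0.2047). Among 20 DNA replication genes limma called 0 in either direction, with 7 higher and 0 lower at an unadjusted p under 0.05 and 3 higher with DESeq2, and a list median of 0.42. Among 19 mitosis genes it called 0, with 2 higher at an unadjusted p under 0.05, 0 with DESeq2 and a list median of 0.43. These medians were not below that of the G1 genes, and the lists were not tested against each other. Myb, a transcription factor of proliferating progenitors with 2 seed matches, fell in both arms, by 0.95 and 0.78 (limma adjusted p = 3.7e-04 and 0.0279), with a contrast of -0.18 (interval -0.63 to 0.28). Bcl6, a transcriptional repressor found in follicular T cells, rose by 0.55 in the cKO arm (limma adjusted p = 0.0029). Its CD25lo arm was 0.46 (limma adjusted p = 0.0841), and the contrast was 0.09 (interval -0.25 to 0.42).

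Among the other lists, integrins (15 measured) had 0 higher and 1 lower, Itgb3, an integrin beta chain, with 2932 ± 15.2 (SD, n = 3) across CD25hi libraries, 5152 ± 194 (SD, n = 2) across CD25lo libraries and a contrast of -0.81 (SE 0.18, limma adjusted p = 0.0375). TGF-beta receptors and SMADs (14) had Lrrc32 higher and Acvr1b, an activin receptor, lower at -1.02 (SE 0.21, limma adjusted p = 0.0288). Interferon response genes (22) also had 1 in each direction, the GTPase Gbp3 at 0.75 (SE 0.13, limma adjusted p = 0.0118) and the oligoadenylate synthetase Oas2 at -1.78 (SE 0.40, limma adjusted p = 0.0375). Costimulatory and coinhibitory receptors (18) had 1 higher, Tnfrsf1b, transcription factors of T cells (30) had 1, Ikzf2, and receptors of the common gamma chain family (7) had 2, Il2ra and Il2rb. Of all 9971 genes 1.62% were called, 1.05% higher and 0.572% lower, and no list was tested against these shares. Itgb3, Acvr1b, Gbp3 and Oas2 were not called with the sex term (limma adjusted p from 0.0798 to 0.388), and Itgb3 and Gbp3 not with the Il2ra scaling (limma adjusted p = 0.1136 and 0.0552). Of the 14 fits that left out 1 library, Itgb3 was called in 4, Oas2 in 5, Acvr1b in 9 and Gbp3 in 13. Dnah7a, an axonemal dynein that fell in both arms like Il2ra, had a contrast of 1.42 (SE 0.28, limma adjusted p = 0.0211). The contrast of Dnah7a was 0.37 with the Il2ra scaling (limma adjusted p = 0.4226), and its call was lost with the sex term (limma adjusted p = 0.1741) and without CD25hi replicate 1 (0.0543) or CD25lo replicate 1 (0.0867).

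Ctla4, a coinhibitory receptor, was at 40076, 30656, 31825, 38976 and 40696 in cKO and 36410, 33442, 32969 and 13256 in WT Tregs, and its contrast of 0.88 (SE 0.36, limma adjusted p = 0.2772) did not pass the test. WT replicate 4 was far below the other WT libraries and within the range of CD25hi Tregs, which held 16236, 12226 and 12223. CD25lo Tregs held 11204 and 8536. With the stress gene level as a term the contrast of Ctla4 was 1.09 (limma adjusted p = 0.0047). It was 1.91 with WT replicate 4 as the only WT library and 0.59 with the sex term (limma adjusted p = 0.7883). With 1 library left out it ranged from 0.54 (without WT replicate 4) to 1.08, and it was called in 0 of these 14 fits. Pdcd1, which encodes PD-1, had a contrast of 0.49 (SE 0.26, limma adjusted p = 0.4392). For 12 lists with 156 measured genes limma called 0 in the contrast (1.62% over all 9971 genes), with 24 higher and 18 lower at an unadjusted p under 0.05, 8 and 1 with DESeq2, and 0 and 1 with edgeR. They were DNA replication, mitosis, the BCL2 family, chemokine receptors, immediate early and stress genes, cholesterol synthesis, the unfolded protein response, miRNA machinery, and markers of B cells, myeloid cells, CD8 and NK cells and conventional T cells. Plasma cell and erythroid markers had 0 genes at the level required. The 7 measured myeloid markers had a median contrast of -2.85 and all lay below 0, beside the high myeloid sums of WT replicates 1 to 3.

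Matches to the miR-15/16 seed were sought on the transcript strand in 1 3′ UTR per gene, its longest, as the 7-mer TGCTGCT, as the shifted 7-mer ending in A, which reads GCTGCTA, or as the 8-mer TGCTGCTA that holds both, counted once. Of the 9513 genes with a 3′ UTR, 32.9% had a match. Among called genes with a 3′ UTR, 56 of 104 higher (53.8%) and 19 of 56 lower (33.9%) had a match. The share was 27 of 41 (65.9%) for genes higher through the cKO arm alone and 21 of 48 (43.8%) for genes higher through the CD25lo arm alone. The 8-mer was held by 513 genes (5.39%), by 15 of the higher and 2 of the lower called genes. The 3′ UTRs of called genes were longer, with a median of 2002 bases for higher and 1908 for lower genes against 1423 for all, and longer 3′ UTRs more often held a match. For 3′ UTRs over 500 and up to 1500 bases, 22.2% of 3204 genes and 13 of 24 higher genes (54.2%) had one, and for those over 1500 and up to 3000 bases, 41.2% of 2759 genes and 22 of 42 higher genes (52.4%). Up to 500 bases these were 7.47% of 1753 genes and 2 of 14 higher genes (14.3%). Above 3000 bases they were 63.8% of 1797 genes and 19 of 24 higher genes (79.2%). Over all genes, the median contrast was 0.037 with a match and -0.022 without, the median cKO arm 0.041 and -0.016, and the median CD25lo arm 0.016 and 0.010.

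**Figure D4:**
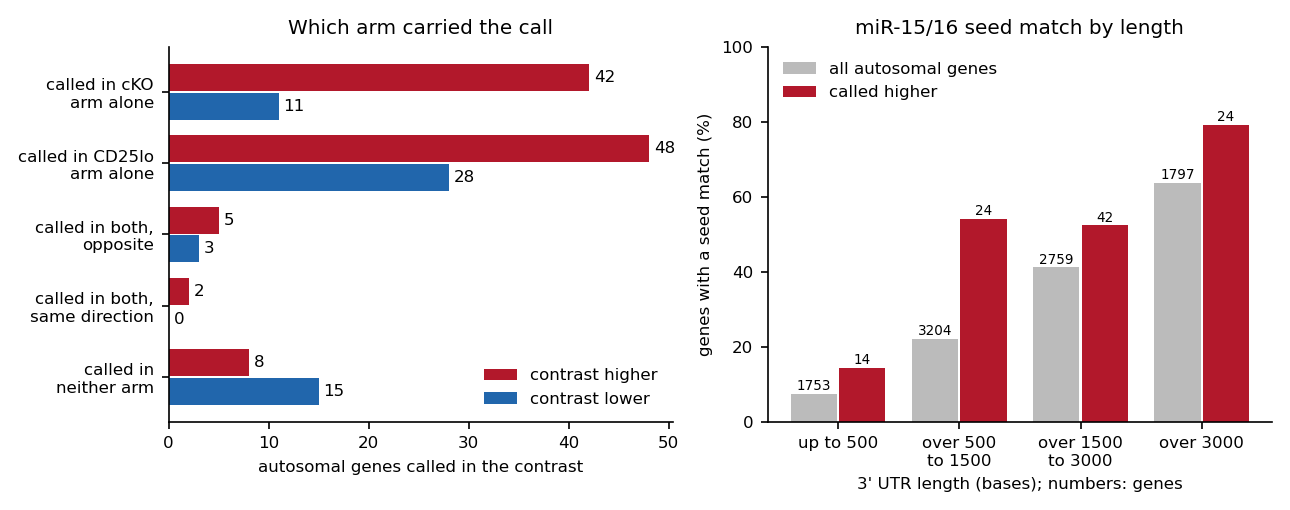
Left, number of genes called in the contrast (x axis) by the arm in which they were called; right, percent of genes with a miR-15/16 seed match (y axis) by 3′ UTR length for all autosomal genes (grey) and genes called higher (red), with the number of genes above each bar. The CD25lo arm alone carried 76 calls and the cKO arm alone 53. In each length class the red bar was the taller, in the shortest class with a match in 2 of 14 genes.

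Named genes lower in the contrast also held matches, among them Igfbp4, Klf7, Myo10, Adgre5, Camk2b, Themis and Enc1. The matches shown here are examples from named genes higher in the contrast. These examples cover genes that rose in the cKO arm (Nrn1, Cbx5, Colq, Cdc25a and Ikzf2). They also cover genes that fell in the CD25lo arm without a rise in the cKO arm that passed the test (Il2ra, Lrrc32 and Ccnd2). They are written 5′ to 3′ on the transcript strand with the matched 7-mer or 8-mer in capitals (reference sequence of GRCm38), at chr13:36725924-36725953 (Nrn1), chr15:103192772-103192801 (Cbx5), chr14:31524258-31524287 (Colq), chr9:109892859-109892888 (Cdc25a), chr1:69537104-69537132 (Ikzf2), chr2:11692384-11692412 (Il2ra), chr7:98501725-98501753 (Lrrc32) and chr6:127128530-127128559 (Ccnd2), all in 3′ UTRs. Those of Cdc25a, Il2ra and Lrrc32 lie on the plus strand and the others on the minus strand.
Nrn1: gtcataagagaTGCTGCTAtggtcatgagg
Cbx5: cccctcatcaaTGCTGCTAgttcagatgtt
Colq: ggatatattctTGCTGCTAcgacatgcttt
Cdc25a: cagaccagtatTGCTGCTActcaaagtcaa
Ikzf2: cagacataactTGCTGCTtgtgtttgagg
Il2ra: tcagctagcagTGCTGCTttgggttttgg
Lrrc32: acactaatcaaTGCTGCTctcacctccca
Ccnd2: gtttcacggtgTGCTGCTAttttagaaaca
Il2rb, with the smallest adjusted p of the contrast, had no match in its 3′ UTR, nor had Phlpp1 or H2-Ob. A match is a description of these letters and does not show a site that is used.

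The called genes were spread over the autosomes, from 0.422% of the genes of chromosome 18 to 2.66% of those of chromosome 9. Chromosomes 14 and 3, which carry the floxed clusters, held 3 called of 376 genes (0.798%) and 6 of 496 (1.21%). Within 5 Mb of miR-15a, 1 of 54 genes was called in the contrast, Kpna3, a nuclear import receptor, at 2572 ± 266 (SD, n = 5) across cKO libraries and 1958 ± 101 (SD, n = 4) across WT libraries, with a contrast of 0.88 (SE 0.16, limma adjusted p = 0.0121). Within 5 Mb of miR-15b, 0 of 16 were called.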

How the data were processed

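RNA-seq reads were aligned by the authors to GRCm38 with STAR 2.7.2b, and the deposited normalized counts are a signal that the authors made by dividing each gene's reads by the DESeq2 1.24.0 size factor of its library. The reads behind them could be recovered as whole numbers (100.0% of values, with a tolerance of 0.055 normalized counts) and were used for the count-based alternatives. The table lists 55536 genes, 48363 of them with values. Columns that hold the authors' own comparisons (fold changes and p-values), variance-stabilized values and GC content were not used.

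The 14 libraries were grouped by the labels. Genes with at least 10 normalized counts in at least 2 libraries (16241) were fitted on log2(normalized count + 1) with 1 mean per group in limma 3.58.1 (R 4.3.3, intensity trend), and p-values were adjusted by the Benjamini-Hochberg method over all fitted genes, with a threshold of 0.05. Fold changes of low genes are understated on this scale. Which mouse gave each library is not given in the sources used here, so p-values measure the spread between these samples. The script was tested on simulated data. Alternatives were edgeR 4.0.16, DESeq2 1.42.0, limma-voom, other pseudocounts, filters and scalings, sex, stress level and replicate number as terms, and each library left out.

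Genes were named by smallest adjusted p of the contrast among called genes, leaving out gene models, Rik names and receptor segments: 6 in each direction for the cKO arm alone, 5 for the CD25lo arm alone, up to 6 for opposite and 5 for same directions, up to 3 per gene list, and 19 genes always. List members called in an arm, Cish, Entpd1, Nrp1, Kpna3 and 4932438A13Rik were named beyond this, after their values were seen. The genes, lists and tests were chosen with earlier results of these data known. Sequences came from RefSeq (miRNAs) and from GRCm38 with GENCODE annotation (3′ UTRs). Python 3.11.15 was used for tables and figures. Some items are not reported here.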

Additional observations from a re-analysis of the deposited data

Results flagged for a closer look

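Of 108 sets of 4 or 5 library values examined (54 named genes in cKO and in WT Tregs), 8 held a library far from the others of its group by Dixon's criterion, where chance gives about 1 in 20. In WT replicate 4, Ctla4 was at 13255.5 normalized counts (others 32969.2 to 36409.8), Tcf7 at 37316.4 (36074.1 to 36223.4) and Ergic1 at 3715.2 (3590.5 to 3599.3). Pdcd1 was at 3218.2 in WT replicate 2 (others 1988.6 to 2172.4), and Myo10 at 647.7 in WT replicate 1 (411.7 to 449.3). In cKO replicate 2, Cbx5 was at 4928.2 (others 4257.1 to 4338.9) and Camk2b at 494.8 (597.6 to 629.8). Oas2 was at 411.5 in cKO replicate 1 (others 352.5 to 365.1).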

How the results depend on the processing

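The counts of genes called higher, lower and in opposite directions (105, 57 and 8) became 888, 779 and 164 at an unadjusted p under 0.05, 262, 198 and 22 with DESeq2, 57, 18 and 5 with no filter on low values, 18, 3 and 0 with sex as a term, 230, 171 and 21 with the stress gene level as a term, and 209, 99 and 13 with WT replicate 4 as the only WT library, an alternative chosen after seeing the data, in which that library is assumed to vary like the other groups. With only the 9971 genes fitted, 155 were higher, 108 lower and 12 opposite, and with the CD25lo arm scaled by Il2ra 156, 96 and 8. With edgeR and TMM the counts were 109, 56 and 7. Over the libraries left out they ranged from 44 to 132, from 13 to 79 and from 1 to 10. In no alternative did any of the 43 called named genes change sign. The contrast of Myc, which was not called, became -0.25 with the Il2ra scaling and -0.11 with the sex term, and ranged from -0.04 to 0.07 over the libraries left out, with values of -0.01 without cKO replicate 1, -0.02 without WT replicate 2, -0.01 without WT replicate 4 and -0.04 without CD25hi replicate 1. The cause of these changes was not tested.

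With the replicate number as a block there were 21 higher, 4 lower and 0 opposite, all 25 among the 162, and 19 of the 43 called named genes passed. Libraries with the same number correlated at -0.327 to 0.113 in their deviations from group means, which gives no sign of pairing. With 2 CD25lo libraries, whose deviations mirror each other, this check cannot settle whether CD25hi and CD25lo libraries of the same number share mice.

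The 2 CD25lo libraries limit the precision: the median standard error was 0.18 in the CD25lo arm and 0.132 in the cKO arm, and the smallest contrast called was 0.37 in size.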
